A study of Mus musculus with 12 samples.

Results

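The genes described here were 37 genes listed for their function: 11 proteases, 10 glycosidases, 5 sulfatases, 4 genes for a thioesterase and for activator or precursor proteins, 6 genes for membrane proteins, and *Tfeb* itself. All 37 symbols were found among the 49585 genes of the count files, and all 37 passed the filter on low counts in each comparison. They were measured by RNA sequencing of the adrenal cortex of 12 male mice, 1 mouse per library. Feeding began at 6 weeks of age and lasted 20 weeks. The 4 LFD mice received a low-fat diet with 10% of energy from fat (their labels say Normal Diet), the 4 HFD mice a diet with 60% of energy from fat, and the 4 icosapent ethyl mice the same high-fat diet, supplemented in the last 10 weeks with icosapent ethyl, the ethyl ester of eicosapentaenoic acid. The labels give the genotype Fads2-/- for all 12 mice, whereas the methods of the study describe wild-type C57BL/6J animals for these diets. *Fads2*, which encodes the desaturase that limits polyunsaturated fatty acid synthesis, was read in every library, at 452 to 2182 CPM. For its own Fads2-/- mice, which were female and fed other diets, the study reports a loss checked in adrenal mRNA and protein. Reads in every library are at odds with such a loss. Which part of the gene the labelled allele lacks is not given in the sources used here. Because all 12 mice carry this label, it does not separate the groups.

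The lysosome is the acid compartment in which cells take apart proteins, glycans and lipids. Its interior is filled with hydrolases that are made in the endoplasmic reticulum, most of them tagged with mannose 6-phosphate and carried to the lysosome through the Golgi, and its limiting membrane carries heavily glycosylated proteins, channels and transporters. The transcription factor TFEB binds a palindromic E-box (the CLEAR element) upstream of many of these genes and can raise their transcription together. In steroid-producing cells of the adrenal cortex, lysosomes also release free cholesterol from the lipoproteins that the cells take up.

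The libraries held 34785979 to 67295963 counts. Levels are given as CPM, the count of a gene relative to the TMM-scaled total of its library, and levels of different genes are compared only per kilobase of exon. Where the values of single mice are listed, LFD mice stand in the order of their labels 2, 5, 6 and 7, and HFD and icosapent ethyl mice in the order 1 to 4. The adrenocortical markers (*Star*, *Cyp11a1* and 7 others) summed to 31460 to 87510 CPM and the chromaffin markers of the medulla (*Th*, *Dbh* and 6 others) to 2988 to 21870 CPM, so that the libraries labelled adrenal cortex also held medullary RNA. None of the 9 adrenocortical and none of the 8 chromaffin markers was at 0 in any library. Between HFD and LFD mice all 9 adrenocortical markers were higher (median log2 difference 0.52) and all 8 chromaffin markers lower (median −1.28). The adrenocortical sums were 31460 to 58110 CPM in LFD and 44140 to 87510 CPM in HFD mice. The chromaffin sums were 6197 to 21870 CPM in LFD and 2988 to 9668 CPM in HFD mice. None of these markers passed edgeR's adjusted test. In each list 6 had an unadjusted p below 0.05 (66.7% and 75.0%, beside 24.8% of all genes). DESeq2 called 2 adrenocortical and 3 chromaffin markers (22.2% and 37.5%, beside 11.5%). In each comparison edgeR's quasi-likelihood test was fitted over all genes, with Benjamini-Hochberg adjustment, and a gene is said to have risen or fallen where its adjusted p was below 0.05.

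To show the E-box motif that TFEB is known to bind, upstream stretches are printed for 4 members that hold it and for *Ctss*, the member with the largest difference between LFD and HFD mice, which holds none. Each is the 100 bases before the first start of the gene in RefSeq or GENCODE, whichever lies further upstream, 5′ to 3′, with the sequence from the RefSeq promoter table of GRCm38.p6. For *Mcoln1*, *Glb1* and *Arsa* the RefSeq start lies 62, 2 and 1 bases downstream of the start used here. Capitals mark the E-box core CACGTG and, where it is complete, the longer CLEAR-like form GTCACGTG, or CACGTGAC on the opposite strand.
Lamp1: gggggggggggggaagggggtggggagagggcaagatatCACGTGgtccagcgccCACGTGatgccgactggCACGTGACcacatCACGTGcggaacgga
Mcoln1: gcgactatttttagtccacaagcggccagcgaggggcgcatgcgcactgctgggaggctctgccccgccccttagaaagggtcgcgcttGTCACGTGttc
Glb1: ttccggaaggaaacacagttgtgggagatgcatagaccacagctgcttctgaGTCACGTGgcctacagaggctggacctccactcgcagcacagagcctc
Arsa: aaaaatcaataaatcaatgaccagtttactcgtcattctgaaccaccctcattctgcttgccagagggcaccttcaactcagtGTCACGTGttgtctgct
Ctss: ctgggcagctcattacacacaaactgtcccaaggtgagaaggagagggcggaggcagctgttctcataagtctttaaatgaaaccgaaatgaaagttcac
The *Lamp1* stretch (lysosome-associated membrane protein 1) lies at chr8:13159061-13159160 on the plus strand and holds 4 cores, of which 1 is of the longer form. The stretch of *Mcoln1* (the lysosomal calcium channel mucolipin 1) lies at chr8:3500357-3500456 on the plus strand, that of *Glb1* (acid beta-galactosidase) at chr9:114400976-114401075 on the plus strand, that of *Arsa* (arylsulfatase A) at chr15:89477426-89477525 on the minus strand and that of *Ctss* at chr3:95526686-95526785 on the plus strand.

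Across the 300-base windows of that table, which run from 250 bases before the RefSeq start to 50 bases after it, CACGTG was found in 13 of the 34 members that have a window (38.2%), beside 8.09% of all 27025 genes. The longer form, which contains the core, was found in 11 of the 34 (32.4%), beside 2.55% of all genes. These 11 were *Arsa*, *Cln3*, *Ctsa*, *Ctsd*, *Gla*, *Glb1*, *Lamp1*, *Lgmn*, *Mcoln1*, *Naglu* and *Sgsh*, and *Ctsl* and *Gaa* held the core alone. *Ctsb*, *Ctsh* and *Galns* had no window in the table. A match describes these letters in the window and is no measure of binding. The 27025 genes are all genes of that table, whether or not they passed the filter on low counts here. The CLEAR element is known from many lysosomal genes, so that these shares are no test of the list. Between LFD and HFD mice the median log2 difference was 0.03 over the 11 members with the longer form and −0.09 over the 23 without it. For the core the order was the other way, with −0.08 over the 13 members with it and −0.06 over the 21 without.

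The lysosomal genes kept nearly the same order of abundance on each diet. In LFD mice, *Psap*, the precursor of the saposins that help degrade sphingolipids, was highest at 737 CPM per kilobase, followed by *Lamp1* at 326, the cysteine protease *Ctsb* at 308, the cysteine protease *Ctss* at 203 and the aspartic protease *Ctsd* at 196 CPM per kilobase. The 2 members with the lowest levels in LFD mice were *Tfeb* at 3.12 and *Cln3*, a membrane protein mutated in juvenile neuronal ceroid lipofuscinosis, at 3.07 CPM per kilobase. The ranking moved by at most 5 places for any member between LFD and HFD mice, by at most 4 places between LFD and icosapent ethyl mice and by at most 2 places between HFD and icosapent ethyl mice. In LFD mice all 4 *Ctsb* values lay above those of *Ctss*, whereas *Ctss* and the genes next below it in this order, *Ctsd* and *Cd63*, did not differ beyond their spread. In HFD mice all 4 *Ctss* values lay below those of *Ctsd* and *Cd63*, with a mean of 107 CPM per kilobase for *Ctss*, 179 for *Ctsd* and 164 for *Cd63*.

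**Figure D1:**
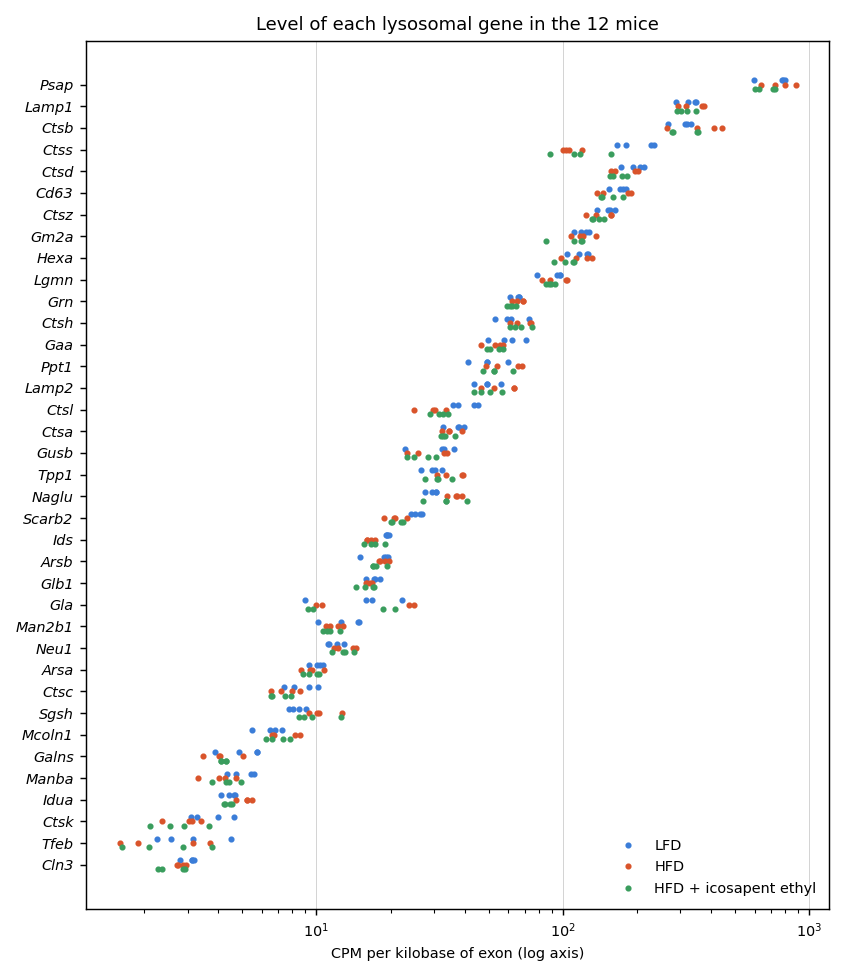
Level of each of the 37 lysosomal genes in CPM per kilobase of exon (log axis), with 1 point for each of the 12 mice; blue, LFD, orange, HFD, green, HFD with icosapent ethyl. *Psap* is highest in every mouse, and of the 10 highest genes *Ctss* is the one whose LFD points lie apart from the HFD points.

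The comparison of HFD with LFD mice asks how obesity changed the transcriptome of the adrenal cortex. Among the lysosomal genes it found 1 that fell and none that rose. *Ctss* (cathepsin S), which degrades the invariant chain of MHC class II and is best known from macrophages and other antigen-presenting cells, fell to 0.525 times its LFD level. The 1 call among 37 members is 2.70%, beside 1.45% of the 15909 genes tested. The other 36 members did not pass the test. On the log2 scale, 36 of the 37 differed by less than 0.5 in either direction (97.3%, beside 77.8% of all genes). By sign, 16 members were higher and 21 lower in HFD mice, with a median log2 difference of −0.06, beside −0.01 over all genes tested. With library totals in place of TMM, 6 of those 16 turned to the lower side (*Arsb*, *Gla*, *Grn*, *Lamp1*, *Lgmn* and *Psap*). A share of 56.8% of the members (21 genes) lay within 0.2 of 0 on the log2 scale, beside 44.8% of all genes. The members also had smaller standard errors, with a median of 0.11 beside 0.19 over all genes tested. The shares near 0 therefore do not show that the members were steadier than other genes.

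At an unadjusted p below 0.05, 7 of 37 members (18.9%) passed, 3 higher and 4 lower, beside 24.8% of all genes. The LFD and HFD mice did not overlap in 7 members (18.9%), 3 higher and 4 lower, beside 13.5% of all genes. DESeq2 called 5 members (13.5%), beside 11.5% of the genes to which it gave an adjusted p. These were *Ctsl*, *Ctss*, *Ids* and *Scarb2*, lower in HFD mice, and *Naglu*, higher.

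**Figure D2:**
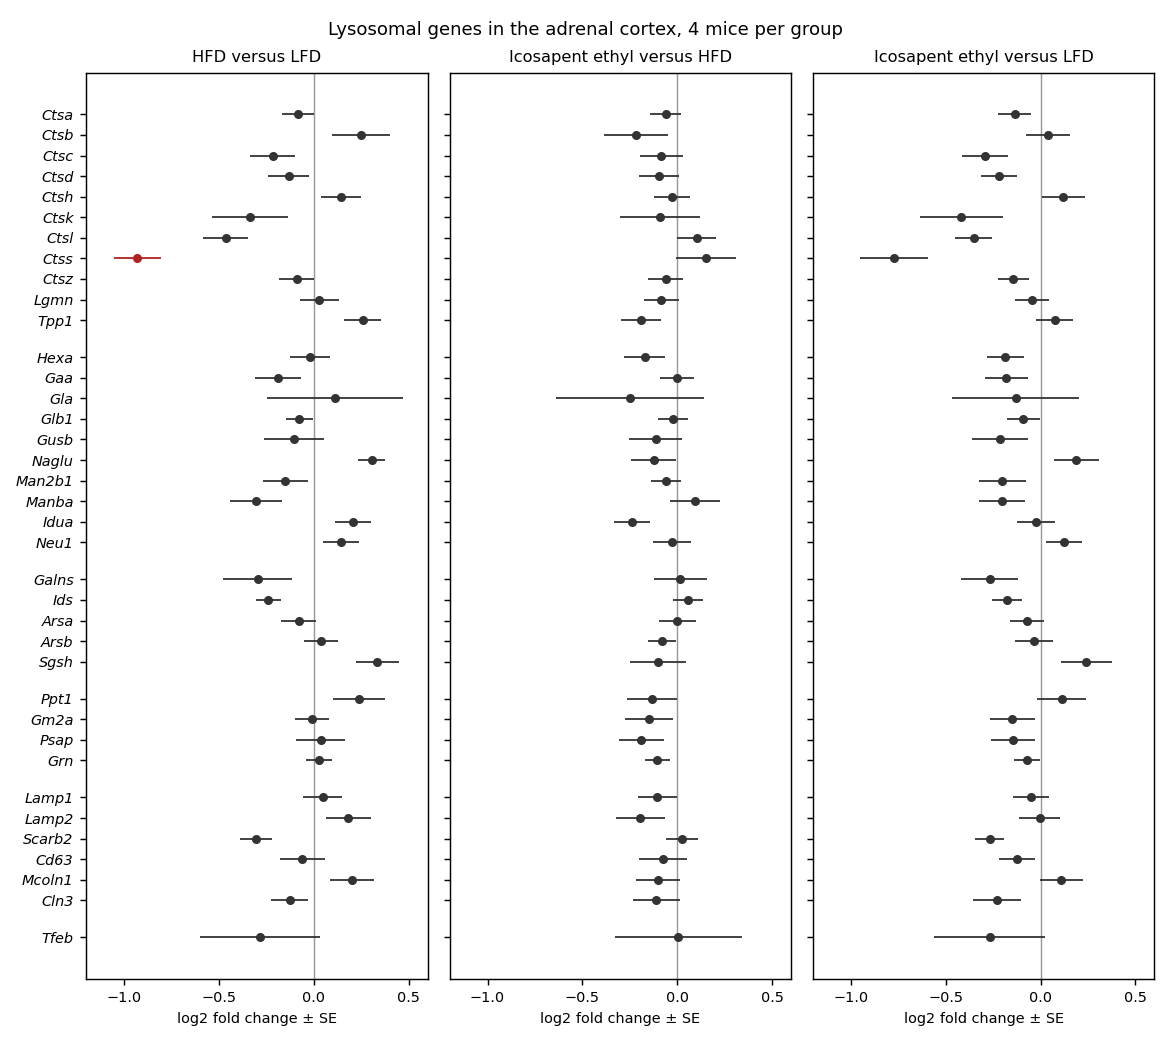
Log2 fold change with its standard error for the 37 lysosomal genes, ordered by role, in the 3 comparisons of 4 against 4 mice; red marks the genes that passed edgeR's test. *Ctss*, at −0.93 in HFD against LFD mice, is the single red point, and most of the others lie within 0.2 of 0.

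The 11 proteases held the widest range of differences, from −0.93 to 0.26 on the log2 scale. *Ctss* (chr3:95526786-95556403, plus strand, GRCm38) was at 246, 311, 226 and 319 CPM in LFD mice, 144, 136, 162 and 139.5 CPM in HFD mice and 121, 214, 150.5 and 159 CPM in icosapent ethyl mice. Every HFD mouse and every icosapent ethyl mouse lay below every LFD mouse. The log2 fold change between HFD and LFD was −0.93 ± 0.12 (SE), and the adjusted p was 0.034 in edgeR and 9.27e-07 in DESeq2. Leaving out 1 mouse at a time kept it between −1.01 and −0.86, but its adjusted p stayed below 0.05 in 2 of 8 such fits (without HFD replicate 1 and without LFD replicate 2) and reached 0.11 in the others. Over all genes, leaving out any of the other 6 mice left no call (2711 to 3990 genes at an unadjusted p below 0.05), while 918 genes were called without HFD replicate 1 and 78 without LFD replicate 2.

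*Ctsl*, a cysteine endopeptidase with a broad range of substrates, was at 282, 232, 294 and 244 CPM in LFD mice, 196, 162, 218 and 192 CPM in HFD mice and 188, 221, 211 and 203 CPM in icosapent ethyl mice. The lowest LFD mouse lay above the highest mouse of either other group. Its log2 difference of −0.47 ± 0.12 between HFD and LFD missed the edgeR threshold (adjusted p = 0.076) and passed by DESeq2 (0.0203) and in an edgeR fit of all 12 mice. *Ctsk*, the collagen-degrading protease of osteoclasts, was near the bottom of the range at 3.21 to 7.01 CPM, with a log2 difference of −0.34. *Ctsc*, which activates granule serine proteases, differed by −0.22 and *Ctsd* by −0.13, with overlapping mice.

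*Ctsb*, the most abundant of these proteases, was at 1617, 1940, 1889 and 2001 CPM in LFD mice and 1603, 2128, 2674 and 2493 CPM in HFD mice. HFD replicate 1 lay below all 4 LFD mice and the other 3 HFD mice above them, which left a log2 difference of 0.25 that did not pass the test (adjusted p = 0.345). *Tpp1*, the tripeptidyl peptidase that is lost in late-infantile neuronal ceroid lipofuscinosis, was at 138 to 168 CPM in LFD and 160.0 to 203 CPM in HFD mice, a log2 difference of 0.26 (adjusted p = 0.151). The carboxypeptidases *Ctsa* and *Ctsz*, the aminopeptidase *Ctsh* and the asparaginyl endopeptidase *Lgmn* differed by −0.08, −0.09, 0.14 and 0.03.

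**Figure D3:**
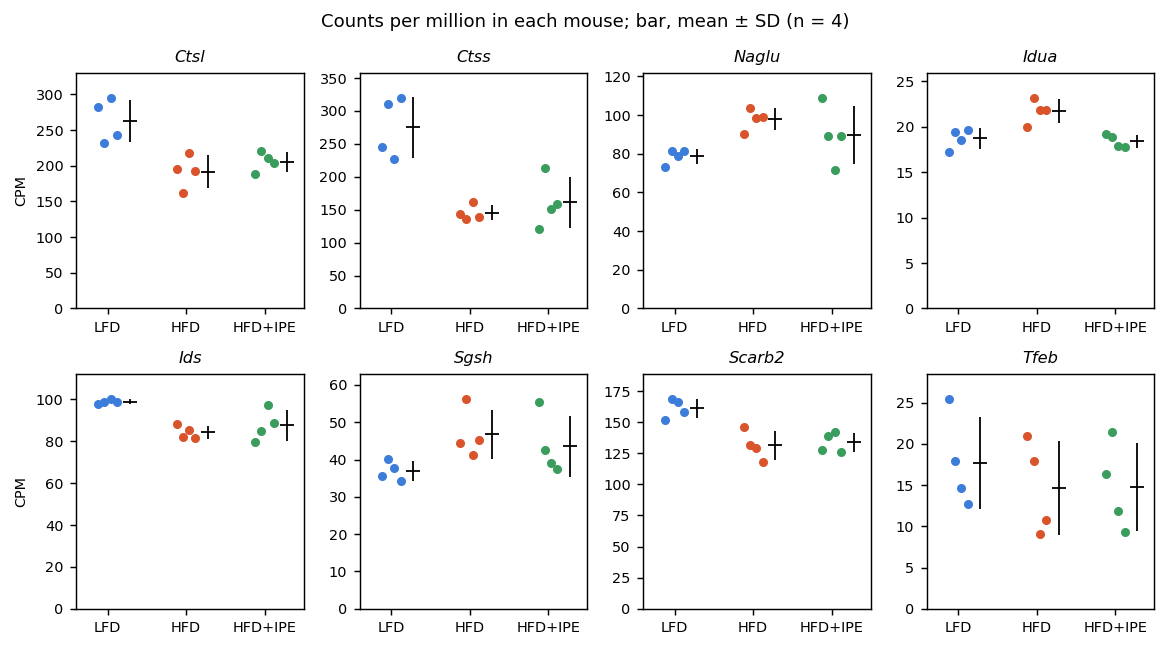
CPM in each mouse (points) with the mean and SD of its group (bars, n = 4) for the 7 lysosomal genes whose LFD and HFD mice did not overlap, and for *Tfeb*; each vertical axis starts at 0. *Ctss*, *Ctsl*, *Ids* and *Scarb2* are lower and *Naglu*, *Idua* and *Sgsh* higher in all 4 HFD mice, while the *Tfeb* points of the 3 groups overlap.

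None of the 10 glycosidases passed the test between HFD and LFD mice. *Naglu*, which removes terminal N-acetylglucosamine from heparan sulfate, came nearest, at 73.2, 81.5, 78.6 and 81.5 CPM in LFD and 90.0, 104, 98.3 and 98.8 CPM in HFD mice. Every HFD mouse was above every LFD mouse. The log2 difference was 0.30 ± 0.07 (adjusted p = 0.0628 by edgeR and 0.0137 by DESeq2), and it passed edgeR's test without HFD replicate 1. *Idua*, which removes iduronic acid from heparan and dermatan sulfate, was at 17.2, 19.5, 18.6 and 19.6 CPM in LFD mice, 19.9, 23.1, 21.9 and 21.9 CPM in HFD mice and 19.2, 18.8, 17.9 and 17.7 CPM in icosapent ethyl mice. The HFD mice were above all mice of both other groups, by a log2 difference of 0.21 from LFD (adjusted p = 0.222).

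*Hexa*, which acts on ganglioside GM2, differed by −0.02, with LFD mice at 207 to 253 and HFD mice at 195 to 262 CPM. The ranges of the groups overlapped. *Gaa*, which degrades glycogen, differed by −0.19, *Manba* and *Man2b1*, which cut beta- and alpha-linked mannose, by −0.31 and −0.15, *Gusb* (beta-glucuronidase) by −0.11, *Glb1* by −0.08 and the sialidase *Neu1* by 0.14.

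*Gla*, the alpha-galactosidase that is deficient in Fabry disease, varied more between mice of 1 group than any other member. It was at 29.3, 52.1, 54.8 and 72.8 CPM in LFD mice, 32.7, 34.6, 81.7 and 77.9 CPM in HFD mice and 31.6, 30.1, 60.6 and 68.3 CPM in icosapent ethyl mice. The groups overlapped almost completely, and the log2 difference between HFD and LFD was 0.11 ± 0.36. *Tfeb* also varied, at 25.5, 18.0, 14.6 and 12.7 CPM in LFD mice, 20.9, 17.9, 9.05 and 10.7 CPM in HFD mice and 16.4, 21.4, 11.9 and 9.26 CPM in icosapent ethyl mice, with log2 differences of −0.29 ± 0.32 between HFD and LFD (adjusted p = 0.616) and 0.01 ± 0.33 between icosapent ethyl and HFD. Within each group the mice ranked by *Gla* stood in exactly the reverse order by *Tfeb*.

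This order was also that of the summed adrenocortical markers, a pattern chosen after the values were seen. Those sums were 31460, 40710, 42530 and 58110 CPM in LFD mice 2, 5, 6 and 7, then 44140, 57400, 87510 and 83240 CPM in HFD mice 1 to 4, and 56490, 44730, 65150 and 80540 CPM in icosapent ethyl mice 1 to 4. *Gla*, *Mcoln1* and *Neu1* followed the order of the sums in all 3 groups (3 of 37 members, 8.11%, beside 1.16% of 16262 genes) and *Tfeb* was the 1 member in the reverse order (2.70%, beside 0.959%). The order was taken from *Gla* and *Tfeb*, which are among the members counted, so that these shares are no test of it. In bulk tissue fewer cells of a type and less RNA per cell cannot be told apart, and the part of the cell mixture in these values was not tested.

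The 5 sulfatases split, and none passed the edgeR test. *Ids*, which removes 2-O-sulfate from heparan and dermatan sulfate, was the member with the least spread in LFD mice, at 97.7, 98.9, 100.3 and 99.0 CPM, and lay at 88.3, 82.1, 85.3 and 81.6 CPM in HFD mice. All HFD mice were below all LFD mice, by a log2 difference of −0.24 ± 0.06 (adjusted p = 0.0828 by edgeR and 0.0114 by DESeq2). *Sgsh*, which removes N-linked sulfate from heparan sulfate, was at 35.5, 40.2, 37.7 and 34.2 CPM in LFD and 44.4, 56.3, 41.2 and 45.2 CPM in HFD mice. Here the lowest HFD mouse exceeded the highest LFD mouse, and the log2 difference was 0.33 (adjusted p = 0.127). *Arsa*, which acts on sulfatide, and *Arsb*, which acts on dermatan sulfate, differed by −0.08 and 0.04, and *Galns*, which acts on keratan sulfate, by −0.30.

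None of the 4 genes for the thioesterase and the activator or precursor proteins passed the test, and their log2 differences between HFD and LFD mice ran from −0.01 to 0.24. *Psap* was at 1637, 2179, 2120 and 2155 CPM in LFD mice, 1743, 2000, 2416 and 2178 CPM in HFD mice and 1949, 1712, 1653 and 1997 CPM in icosapent ethyl mice. The range of the HFD mice spanned most of the LFD range, and the log2 difference was 0.04 ± 0.13. *Gm2a*, the activator that presents ganglioside GM2 for degradation, differed by −0.01, *Grn*, the precursor of the granulins, by 0.03, and *Ppt1*, which removes palmitate from proteins, by 0.24.

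Of the 6 membrane proteins, *Scarb2*, the receptor that carries glucocerebrosidase to the lysosome, differed most. It was at 152, 169, 166 and 158 CPM in LFD mice, 146, 132, 129 and 118 CPM in HFD mice and 128, 139, 142 and 126 CPM in icosapent ethyl mice. All mice on either high-fat diet lay below all LFD mice. Its log2 difference of −0.30 ± 0.08 between HFD and LFD had an adjusted p of 0.0873 by edgeR and 0.034 by DESeq2. The structural glycoproteins *Lamp1* and *Lamp2* differed by 0.05 and 0.18, the tetraspanin *Cd63* by −0.06, *Mcoln1* by 0.20 and *Cln3* by −0.13.

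The second comparison asks what icosapent ethyl changed in mice that stayed on the high-fat diet. No lysosomal gene passed edgeR's test (0 of 37, beside 0% of 15913 genes), and DESeq2 called none of them (beside 0.0268% of genes). At an unadjusted p below 0.05 there was 1 member, *Idua* (2.70%, beside 1.39% of genes), and it was also the 1 member whose mice did not overlap (2.70%, beside 1.14% of genes). *Idua* was lower in all 4 icosapent ethyl mice, by a log2 difference of −0.24 ± 0.09 (unadjusted p = 0.0335). By sign, 30 members were lower and 7 higher with icosapent ethyl, and 8 of the 30 turned to the higher side with library totals in place of TMM. The median log2 difference was −0.08, beside 0.00 over all genes tested. Within 0.2 of 0 lay 34 of 37 members (91.9%, beside 71.5% of all genes). The median standard error was again smaller for the members, at 0.11 beside 0.19.

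Members with lower values included *Gla* (−0.25), *Ctsb* (−0.22), *Lamp2* (−0.19), *Psap* (−0.19) and *Tpp1* (−0.19), each within 2 SE of 0. The highest value was that of *Ctss*, at 0.15, and rested on icosapent ethyl replicate 2, without which its sign turned. The replicate numbers 1 to 4 are shared by the HFD and icosapent ethyl mice, and a fit with the number as a replicate block also called no member and gave a median of −0.08. Without HFD replicate 1 the median was −0.13 and without HFD replicate 3 it was −0.04.

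The third comparison set the icosapent ethyl mice against the LFD mice, which also serve as the reference of the HFD mice. No member passed edgeR's test (0 of 37, beside 0% of 15935 genes). At an unadjusted p below 0.05 there were 5 members, all lower (13.5%, beside 14.0% of genes). The mice did not overlap in 4 members, *Ctss*, *Ctsl*, *Ids* and *Scarb2*, all lower (10.8%, beside 7.73% of genes). DESeq2 called *Ctss* alone (2.70%, beside 2.58% of genes). The log2 difference of *Ctss* was −0.77 ± 0.18 (adjusted p = 0.189 by edgeR and 0.0156 by DESeq2), that of *Ctsl* was −0.35, that of *Scarb2* was −0.27 and that of *Ids* was −0.18. Over the list the median was −0.14, beside 0.00 over all genes, with 29 members lower and 8 higher.

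Other genes of the lysosome were counted in 6 further lists with 79 genes. Between HFD and LFD mice 2 of the 79 passed edgeR's test (2.53%, beside 1.45% of all genes), and 16 passed by DESeq2 (20.3%, beside 11.5%), 9 higher and 7 lower. The 2 were *Npc1*, which exports cholesterol from the lysosome and rose, and *Cd68*, which fell. *Npc1* was at 86.2, 112, 96.8 and 110.0 CPM on the LFD and 133, 163, 191 and 175 CPM on the HFD, which gave a log2 difference of 0.70 (adjusted p = 0.0408). *Cd68*, a glycoprotein of macrophage lysosomes, was at 30.7, 46.4, 34.8 and 45.1 CPM on the LFD and 19.4, 16.2, 17.8 and 12.8 CPM on the HFD, which gave a log2 difference of −1.25 (adjusted p = 0.0376). All HFD mice were apart from all LFD mice in both genes, above them in *Npc1* and below them in *Cd68*. When 1 mouse was left out, *Npc1* passed edgeR's test in 1 of 8 fits (without HFD replicate 1), and its adjusted p reached 0.135 in the others. *Cd68* passed in 2 of 8 (without HFD replicate 1 and without LFD replicate 2), and its adjusted p reached 0.11 in the others.

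By list, 1 of 10 lipid-degrading and cholesterol export genes rose and none fell, 1 of 14 channels, transporters and membrane proteins fell and none rose, and none of 14 further hydrolases, 17 proton pump genes, 10 genes for delivery and modification of enzymes and 14 genes of nutrient sensing and transcription passed. The median log2 difference over the 79 genes was 0.06. The largest differences of these lists, chosen after the values were seen, were those of *Gpnmb* and *Atp6v0d2*. *Gpnmb* is a glycoprotein of lipid-laden macrophages and *Atp6v0d2* a proton pump subunit of macrophages and osteoclasts. Both were at −2.39 and missed edgeR's threshold (adjusted p = 0.0624 and 0.0553), but DESeq2 called both (adjusted p = 0.000198 and 3.87e-05). In both genes all HFD mice lay below all LFD mice. Against HFD or LFD mice, icosapent ethyl mice showed no call among the 79 genes by edgeR (0 and 16 at an unadjusted p below 0.05), and DESeq2 called 0 and 4 of them. Against LFD mice the 16 are 20.3%, beside 14.0% of all genes, and the 4 are 5.06%, beside 2.58%.

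*Ctss* fell together with a part of the macrophage markers. Of 14 such markers, 6 fell in HFD mice (*C1qa*, *C1qc*, *Lyz2*, *Tyrobp*, *Fcer1g* and *Aif1*, by log2 fold changes from −0.96 to −0.66), none rose, and 8 did not pass, among them *Csf1r* at −0.11, *Cd163* at 0.11 and *Mrc1* at 0.24. That is 42.9% of the list, beside 1.45% of all genes. The 14 markers summed to 799 to 1172 CPM in LFD mice, 572 to 688 CPM in HFD mice and 620 to 758 CPM in icosapent ethyl mice, and none of them was at 0 in any library. The sums of the LFD mice lay above those of all other mice. Between icosapent ethyl and LFD mice edgeR called none of the 14 markers, 8 had an unadjusted p below 0.05 (57.1%, beside 14.0% of all genes) and DESeq2 called 6 (42.9%, beside 2.58%).

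Lysozyme 2 (*Lyz2*), for example, was at 298, 461, 316 and 467 CPM in LFD mice and 206, 186, 225 and 177 CPM in HFD mice, and the complement component *C1qa* at 127, 146, 132 and 171 CPM and 80.2, 80.0, 100.1 and 85.8 CPM. LFD replicates 5 and 7 were the highest 2 of their group in *Ctss*, and also in 11 of the 14 markers (78.6%, beside 23.1% of 16262 genes), while in *Cd163* they were the lowest 2. Icosapent ethyl replicate 2 was the highest of its group in *Ctss* and in 7 of the 14 markers (beside 28% of genes), and the lowest in 3 (*Csf1r*, *Fcgr1* and *Mrc1*; 21.4%, beside 26.8%). The mice named here were picked from their *Ctss* values after these were seen, and the 14 markers were read in the same mice. The shares given for these mice are therefore no test. The part of macrophage RNA in the *Ctss* value was not tested.

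**Figure D4:**
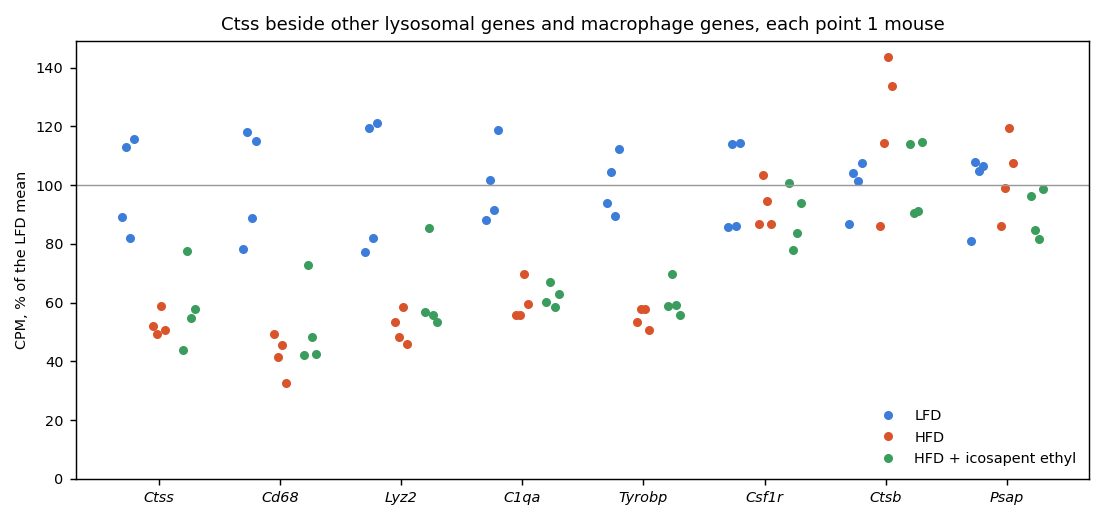
CPM in each of the 12 mice as a percentage of the LFD mean (line at 100) for *Ctss*, the lysosomal gene *Cd68*, the macrophage markers *Lyz2*, *C1qa*, *Tyrobp* and *Csf1r*, and the abundant lysosomal genes *Ctsb* and *Psap*; blue, LFD, orange, HFD, green, HFD with icosapent ethyl. In the 5 genes from *Ctss* to *Tyrobp* the HFD points lie below the LFD points, whereas in *Csf1r*, *Ctsb* and *Psap* the groups overlap. *Lyz2*, *C1qa* and *Tyrobp* are from the 6 of 14 macrophage markers that fell. The 3 markers that were higher in HFD mice, without a call, are not shown.

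Within a group, the lysosomal genes tended to be low or high together. The median coefficient of variation over the members was 9.25% in LFD, 11.4% in HFD and 9.03% in icosapent ethyl mice. LFD replicate 2 was the lowest of its group in 27 of 37 members (73.0%, beside 33.8% of 16262 genes), and HFD replicate 1 in 22 (59.5%, beside 28.3%). LFD replicate 7 was the highest of its group in 20 members (54.1%, beside 30.9%), and so was icosapent ethyl replicate 4 (54.1%, beside 28.9%). LFD replicate 2 and HFD replicate 1 had the lowest summed adrenocortical markers of their groups, and LFD replicate 7 and icosapent ethyl replicate 4 the highest. HFD replicate 3, with the highest sum of its group, was the highest in 15 members (40.5%, beside 23.0%). Icosapent ethyl replicate 2 did not follow, since it had the lowest sum of its group but was the lowest in 9 members (24.3%, beside 26.8%). TMM factors, by which the library totals were scaled, were highest of their group in LFD replicate 2 (1.14) and HFD replicate 1 (1.07). They were lowest of their group in LFD replicate 7 (0.95), HFD replicate 3 (0.88) and icosapent ethyl replicate 4 (0.92). Icosapent ethyl replicate 2 had the highest factor of its group (1.09) and again did not follow. The part of adrenocortical RNA or of this scaling in the lysosomal values was not tested.

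**Figure D5:**
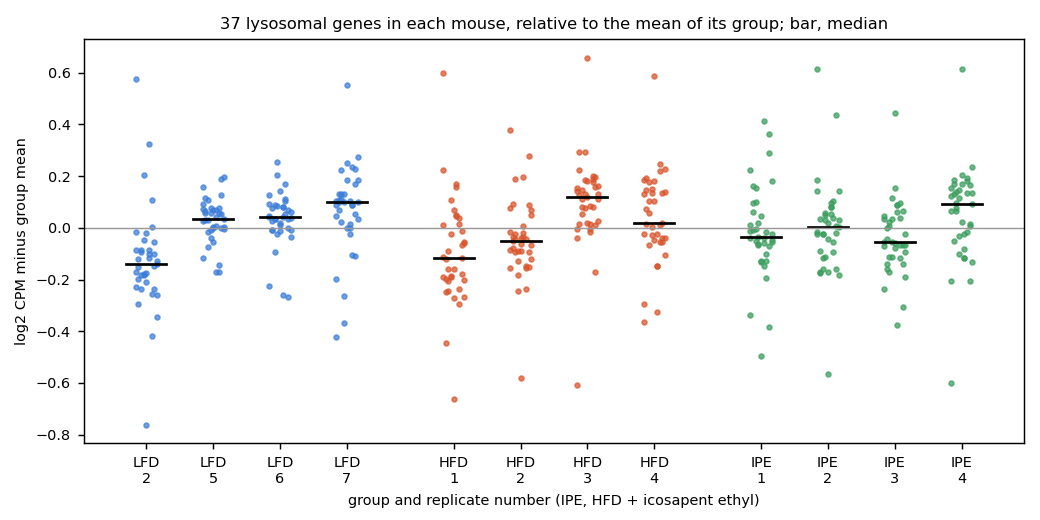
Log2 CPM of each of the 37 lysosomal genes minus the mean of its group, by mouse, with the median over the genes as a bar. The medians of LFD replicate 2 (−0.14) and HFD replicate 1 (−0.12) are the lowest, and that of HFD replicate 3 (0.12) the highest.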

How the data were processed

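RNA of the adrenal cortex was sequenced from 12 male mice, 1 library per mouse. The authors deposited raw counts of reads per gene. Per the methods of the study, they used a strand-specific total RNA kit, trimmed adaptors with cutadapt, aligned the reads to GRCm38 with STAR and counted them on GENCODE genes with HTSeq 0.6.1p1 in reverse-strand mode. The library kit is described there as paired-end and the run as single reads, which cannot be settled from the counts. The deposited counts summed to 34785979 to 67295963 per library. A member had 158 to 132054 counts, so that for most members counting error is small beside the spread between mice. Where the spread was least it was no larger than counting error, as for *Ids* in LFD mice (coefficient of variation 1.09%) and *Galns* in icosapent ethyl mice (2.6%). No library pair agreed within sampling noise (lowest chi-square per degree of freedom 26.5 over 66 pairs).

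Symbols, coordinates and exon lengths were taken from a later GENCODE release of the same build. Groups and replicate numbers came from the labels. Each comparison was fitted on its own 8 mice with edgeR 4.0.16 in R 4.3.3 (TMM, filterByExpr with a minimum count of 10, robust glmQLFit, glmQLFTest, Benjamini-Hochberg over all genes tested, threshold 0.05). DESeq2 1.42.0 was an alternative, beside other scalings, no filter, a fit of all 12 mice and leaving out each mouse. The fits were tested on simulated data. P-values measure the spread between these mice.

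The HFD and icosapent ethyl mice share the numbers 1 to 4. Same-numbered mice deviated together from their group means (correlations 0.116 to 0.632), though HFD mouse 1 and icosapent ethyl mouse 2 also did (0.598). Whether a number marks a shared cage or day is not given in the sources used here. The LFD mice share number 2 alone, so that no paired analysis was made for them.

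All 37 members are named. Other lysosomal genes are named where their adjusted p was below 0.05 in HFD against LFD mice, and any further gene is said to be chosen after its values were seen. An item withheld from this text is not reported here and was left out of the lists. The members and lists were chosen with earlier results of these data known. Promoter windows were read from the RefSeq table of GRCm38.p6, and 30 of the 34 members' windows shared bases after the start with a transcript of the gene.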

Additional observations from a re-analysis of the deposited data

Results flagged for a closer look

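The spread of each of the 37 members, and of *Npc1* and *Cd68*, within each group of 4 mice was compared with Dixon's critical value, and 4 values stood apart. All 4 were low values of LFD replicate 2. There *Lgmn* was at 181.7 CPM beside 219.6 CPM in the nearest LFD mouse, *Psap* at 1637 beside 2120 CPM, *Grn* at 212.5 beside 228.9 CPM and *Cln3* at 16.19 beside 18.11 CPM. Chance alone flags about 1 in 20 groups, and 4 is below that share of the 117 gene and group combinations examined. These combinations are not independent, because the genes of 1 mouse tended to be low or high together. The share therefore cannot decide whether 4 low values in 1 mouse are chance. LFD replicate 2 also had the lowest summed adrenocortical markers of the 12 mice, 31460 CPM. Without that mouse the log2 fold change of *Ctss* between HFD and LFD mice kept its call.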

How the results depend on the processing

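The count of 1 lysosomal gene that differed between HFD and LFD mice was 5 with DESeq2, 2 in a fit of all 12 mice and 0 to 3 when 1 mouse was left out. It was 0 without HFD replicates 2, 3 or 4 or LFD replicates 5, 6 or 7. No gene at all was called in any of those fits, so that their 0 says nothing about lysosomal genes in particular. The count was 3 without HFD replicate 1 (*Ctss*, *Naglu* and *Scarb2*), where 918 of 16096 genes were called. Without LFD replicate 2 it was 1 (*Ctss*), beside 78 of 16021 genes. Over all genes edgeR called 230 of 15909 in the main fit and 556 of 16262 with all 12 mice. The median log2 difference of the list in this comparison was −0.17 with library totals in place of TMM, where the median of all genes was −0.11, and −0.07 to −0.01 when 1 mouse was left out. With icosapent ethyl against LFD mice the count of 0 became 1 with DESeq2 (*Ctss*). With icosapent ethyl against HFD mice it stayed 0 in all alternatives run, and the fit with a replicate block changed no call (0 members, median −0.08, 3 members at an unadjusted p below 0.05, 8.11% beside 4.37% of all genes, against 2.70% beside 1.39% without the block). The cause of these changes was not tested. No called value changed sign. Signs of uncalled members turned in at most 8 members under any 1 alternative, none with a log2 difference beyond 0.15. With 4 mice per group, the members had standard errors of 0.06 to 0.36 between HFD and LFD mice. Differences of several standard errors could miss the threshold, as for *Naglu* (0.30 ± 0.07) and *Ctsl* (−0.47 ± 0.12). A member that did not pass is thus not shown to be unchanged.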
